A study of Homo sapiens with 24 samples.

Results

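The IGF2BP family comprises IGF2BP1, IGF2BP2 and IGF2BP3, 3 of the 58676 genes counted in this series. They were chosen by name, and all 3 passed the filter on low counts that 13136 genes passed. Transcripts were counted in HepG2 cells, a long-established line from a human liver tumour, that had received a control siRNA (siControl) or siIGF2BP1, siIGF2BP2 or siIGF2BP3, each directed against 1 member of the family. Actinomycin D, which blocks transcription, was present for 0, 3 or 6 h at 5 µg per ml before the cells were collected, and ERCC spike-in RNA was added in proportion to total RNA. The 4 conditions at 3 time points gave 12 groups with 2 libraries each. All cells carried an siRNA, none was untransfected, and the knockdown was transient. The drug time course came 48 h after the transfected cells were reseeded. The siRNAs were pre-designed reagents whose sequences were not used here. The study calls its replicates independent but does not say that they were separate transfections. Each transfected plate was split over the time points, so that libraries of 1 condition at different times may share a transfection. P-values therefore measure the spread between these libraries, which may be technical.

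IGF2BP proteins bind RNA through RRM and KH domains and are cytoplasmic partners of many mRNAs, whose lifetime, location and translation they influence. IGF2BP1 and IGF2BP3 are made mostly in the embryo and again in many tumours, liver cancers among them, and for that reason are called oncofetal. IGF2BP2 is also made in many adult tissues. All 3 proteins have been described as readers of modified bases in mRNA. Because the 3 proteins are closely related and bind overlapping sets of mRNAs, knockdown of 1 of them leaves the question of what the other 2 mRNAs do. The comparisons below address how much of each targeted mRNA was left, how fast that residual was lost, and whether either paralog rose.

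The libraries held 31843248 to 74252042 gene reads and 50889 to 119088 ERCC reads. All 11 hepatocyte and HepG2 markers examined, such as ALB and AFP, were above 1 CPM (count per-million reads) in every library, with a summed level of 68418.5 to 101271 CPM. Of 8 markers of other cell types, 4 were under 1 CPM in every library, and PTPRC and CD3E, of leukocytes and T cells, reached at most 0.0181 and 0.0246 CPM. Their summed level was 31.5 to 45.4 CPM, most of it from ACTA2 at 29.1 to 42.6 CPM. Over 6 h in siControl, 8 short-lived transcripts changed by a median of -4.64 on the log2 scale relative to ERCC reads, against 0.07 for 6 long-lived ones, as a check of the drug.

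The genes lie on separate chromosomes. In hg38, IGF2BP1 (ENSG00000159217.9) spans 48997385 to 49056145 of chromosome 17 on the plus strand. IGF2BP2 (ENSG00000073792.15) spans 185643130 to 185825042 of chromosome 3 on the minus strand, and IGF2BP3 (ENSG00000136231.13) spans 23310209 to 23470491 of chromosome 7 on the minus strand. Their canonical GENCODE transcripts have 15, 16 and 15 exons, and similar coding parts of 1734, 1800 and 1740 bases with the stop codon. The 3' untranslated regions (UTRs) differ in length, with 6701 bases in IGF2BP1, 2401 in IGF2BP2 and 2153 in IGF2BP3. Aligned coding parts were identical at 70.1% of bases between IGF2BP1 and IGF2BP2, 70.5% between IGF2BP1 and IGF2BP3, and 70.7% between IGF2BP2 and IGF2BP3.

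Stretches that the mRNAs share matter here because a read or an siRNA can match both paralogs there. Across all annotated transcripts, no run of 50 bases was common to any pair, and reads were 100 bases long. Windows of 19 bases, about the length with which an siRNA pairs, were shared in 6 cases (overlapping windows included) by IGF2BP1 and IGF2BP2, 5 by IGF2BP1 and IGF2BP3, and 0 by IGF2BP2 and IGF2BP3. The longest runs shared by the canonical transcripts, of 22 and 21 bases, lie in the coding part of the first exon and are shown in capitals with their neighbours in lower case. The first pair is at chr17:48997850-48997879 and chr3:185824824-185824853, and the second at chr17:48997862-48997890 and chr7:23469966-23469994.
IGF2BP1, shared with IGF2BP2: caaaTCCGGCTACGCCTTCGTGGACTgccc
IGF2BP2, shared with IGF2BP1: gaagTCCGGCTACGCCTTCGTGGACTaccc
IGF2BP1, shared with IGF2BP3: cgccTTCGTGGACTGCCCGGACGAGcact
IGF2BP3, shared with IGF2BP1: cgcgTTCGTGGACTGCCCGGACGAGagct

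IGF2BP1 is a textbook target of let-7, a miRNA of differentiated cells, so the matches to its seed in the 3 mRNAs are shown as well. Mature let-7a is printed with its seed, bases 2 to 8, in capitals, from RefSeq on GRCh38.p14. The sites are 30-base windows of the canonical transcripts with the complement of the seed, CTACCTC, in capitals. They were searched on the transcript strand only, and all sequences run 5′ to 3′ along the mRNA in hg38, from the plus strand for IGF2BP1 and the minus strand for its paralogs.
let-7a-5p: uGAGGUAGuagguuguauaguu
IGF2BP1, chr17:49051061-49051090: tgtgtgcgaagtaaaCTACCTCaaggtatg
IGF2BP1, chr17:49053698-49053727: cagcagtgctagtaaCTACCTCacagagcc
IGF2BP1, chr17:49054352-49054381: gtataaatggattaaCTACCTCaatcctta
IGF2BP1, chr17:49054997-49055026: tcacttttgttttatCTACCTCttagcaaa
IGF2BP2, chr3:185644213-185644242: aacacacagaagaagCTACCTCaggtgttt
IGF2BP3, chr7:23311788-23311817: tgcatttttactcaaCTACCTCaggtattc
IGF2BP1 held 4 matches and each paralog 1. Of 786 canonical 3' UTRs with 0.8 to 1.25 times the length of that of IGF2BP1, 32.4% held at least 1 match and 0.51% held 4 or more. The share with at least 1 match was 13.3% of 2642 UTRs of the length of IGF2BP2 and 12.3% of 2706 of that of IGF2BP3. A match is a description of the letters and not a measured site.

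IGF2BP1 was the most abundant member. In siControl at 0 h its level was 65.1 ± 0.864 CPM per kb of exon on the TMM scale (SD, n = 2), above 96.9% of 13094 genes with a length. IGF2BP2 stood at 32.3, above 92.5% of these genes, and IGF2BP3 at 11.8, above 77.0%. Each level exceeded the next by far more than the spread between its replicates. IGF2BP1 thus held 59.6% of the summed level of the family, IGF2BP2 29.6% and IGF2BP3 10.8%. With canonical transcript lengths in place of all exons these shares were 52.8%, 29.8% and 17.4%. The TMM scale sets each library to its typical transcript, so that levels on it are relative to the other mRNAs of the same library. The 1 other gene whose symbol starts with IGF2BP, the antisense RNA IGF2BP2-AS1, had 5 reads in all 24 libraries.

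IGF2BP1, whose product is the best studied mRNA-stabilising member, was depleted furthest. In siControl it was at 621 and 632 CPM on the TMM scale at 0 h, 712 and 728 at 3 h, and 722 and 738 at 6 h. In siIGF2BP1 it was at 130.4 and 135 CPM at 0 h, 121 and 116 at 3 h, and 113 and 119 at 6 h. The groups were far apart at every time. With siIGF2BP2 it ranged from 628 to 776 CPM and with siIGF2BP3 from 681 to 812, so that siIGF2BP3 had the highest level at each time and siControl and siIGF2BP2 overlapped at 0 h.

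IGF2BP2, a member that is also made in adult tissues and is tied to metabolism, showed the same kind of separation. In siControl it was at 169 and 176 CPM at 0 h, 207 and 212 at 3 h, and 221 and 233 at 6 h on the TMM scale. In siIGF2BP2 the values were 45.5 and 44.8, then 43.5 and 43.9, then 51.1 and 49.6 CPM. It ranged from 182 to 242 CPM with siIGF2BP1 and from 178 to 231 with siIGF2BP3. The siIGF2BP1 libraries lay above the siControl ones at each time by small margins, whereas siIGF2BP3 and siControl overlapped at 6 h.

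IGF2BP3, the member most often reported in tumours, kept the largest residual at 0 h. In siControl it was at 102 and 99.0 CPM at 0 h, 124 and 119 at 3 h, and 135 and 143 at 6 h on the TMM scale. In siIGF2BP3 the values were 36.1 and 35.2, then 34.0 and 33.1, then 33.7 and 34.8 CPM. With siIGF2BP1 it was at 113 and 121, then 145 and 143, then 165 and 168 CPM. Every siIGF2BP1 library lay above both siControl libraries of its time. With siIGF2BP2 it ranged from 97.8 to 136 CPM and overlapped siControl at 0, 3 and 6 h.

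**Figure D1:**
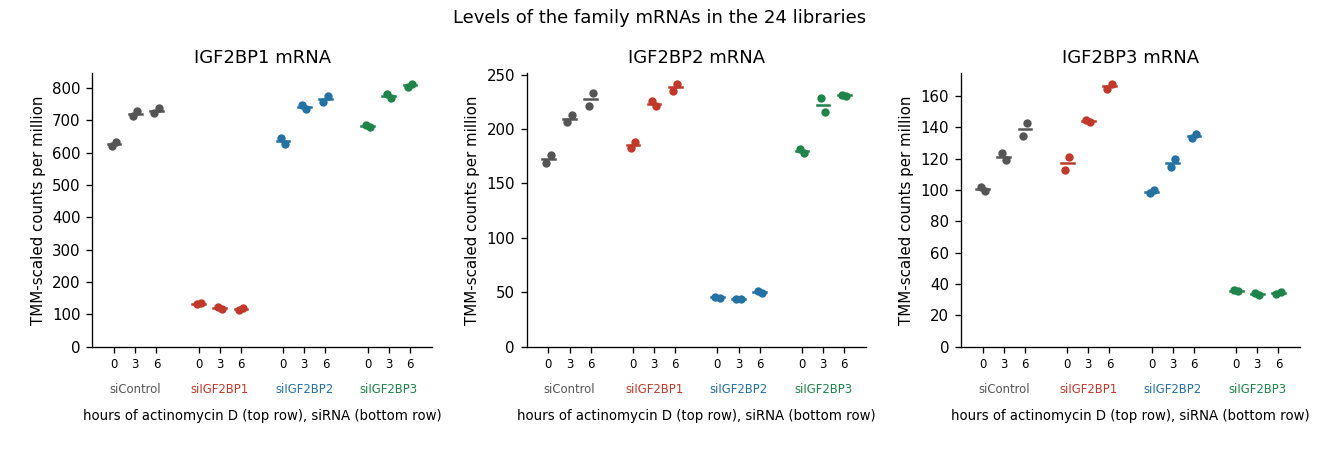
Level of each family mRNA in the 24 libraries, in TMM-scaled CPM (vertical axis) by siRNA and hours of actinomycin D (horizontal axis). Points are libraries and bars are means of 2. IGF2BP1 ranged from 113 to 135 CPM in the siIGF2BP1 libraries and was at 621 CPM or more in every other library.

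Each siRNA lowered its own target at 0, 3 and 6 h, and the residual differed between targets. At 0 h, the log2 change was -2.24 for IGF2BP1 (SE 0.0320, edgeR adjusted p 2.55e-36), -1.93 for IGF2BP2 (SE 0.0401, adjusted p 1.80e-30) and -1.49 for IGF2BP3 (SE 0.0446, adjusted p 7.83e-25). The residual was 21.1% of siControl for IGF2BP1 (95% interval 20.2% to 22.1%), 26.2% for IGF2BP2 (24.8% to 27.7%) and 35.5% for IGF2BP3 (33.4% to 37.8%), with intervals that did not overlap. At 0 h, 6.50% of all genes were called lower with siIGF2BP1, 5.47% with siIGF2BP2 and 4.47% with siIGF2BP3. These shares were 10.2%, 9.47% and 8.62% at 3 h and 10.8%, 10.4% and 9.04% at 6 h. At 0 h the target was the gene that fell most of 13136 in siIGF2BP1 and in siIGF2BP2. In siIGF2BP3, 2 genes fell further at 0 h, ETS1 by 1.78 and GGT5 by 1.60, both with a mean level under 1 CPM. In bulk RNA, fewer cells with effective knockdown and an equal loss in every cell cannot be told apart.

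The residual shrank further against siControl during actinomycin D. For IGF2BP1 it was 21.1% at 0 h, 16.5% at 3 h and 15.9% at 6 h (95% interval at 6 h, 15.2% to 16.7%). For IGF2BP2 it was 26.2%, 20.9% and 22.1% (20.9% to 23.5%). For IGF2BP3 it was 35.5%, 27.7% and 24.7% (23.1% to 26.4%). The replicates of a group lay at most 1 percentage point apart, less than the step from 0 to 3 h in all 3 mRNAs.

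**Figure D2:**
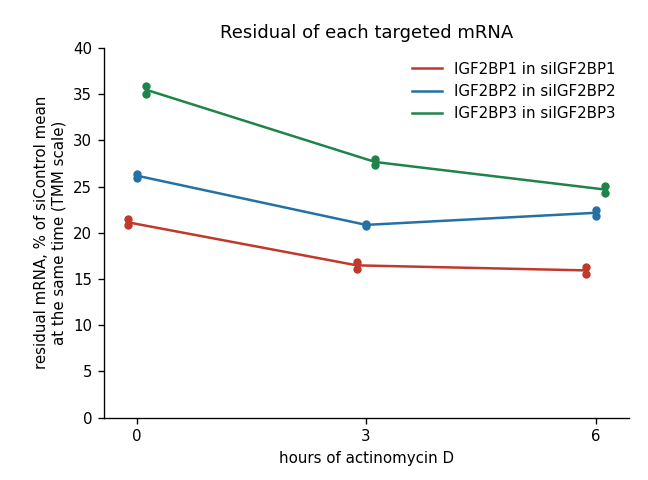
Residual of each targeted mRNA as a percentage of the siControl mean of the same time (vertical axis, TMM scale) by hours of actinomycin D. Points are libraries and lines join means of 2. Each residual was lower at 3 h than at 0 h, from 21.1% to 16.5% for IGF2BP1, 26.2% to 20.9% for IGF2BP2 and 35.5% to 27.7% for IGF2BP3.

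The test of this change as an interaction, the knockdown effect at 6 h minus that at 0 h on the TMM scale, gave -0.41 for IGF2BP1 (SE 0.0445, adjusted p 3.82e-07), -0.24 for IGF2BP2 (SE 0.0567, adjusted p 0.0321) and -0.53 for IGF2BP3 (SE 0.0652, adjusted p 8.55e-06). Few genes changed their knockdown effect in this way, 0.502% in siIGF2BP1, 0.472% in siIGF2BP2 and 0.297% in siIGF2BP3 in either direction. The 3 targets changed by similar amounts in the first interval. From 0 to 3 h the effect moved by -0.36 for IGF2BP1 (adjusted p 7.70e-06), -0.33 for IGF2BP2 (adjusted p 0.00703) and -0.36 for IGF2BP3 (adjusted p 0.0111), where 0.0837%, 0.0761% and 0.0609% of genes were called. From 3 to 6 h it moved by -0.05, 0.09 and -0.17, with adjusted p of 0.887, 0.941 and 0.465.

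The same pattern appeared in the ratio of each target to its 2 paralogs within a library, a quantity that needs no scaling between libraries and was added after the data were seen. From 0 to 6 h, the log2 ratio of IGF2BP1 to the mean of IGF2BP2 and IGF2BP3 changed by -0.62 in siIGF2BP1 and by -0.21 in siControl, a difference of -0.41 (SE 0.0344 from the replicate spread). The difference was -0.25 for IGF2BP2 (SE 0.0508) and -0.51 for IGF2BP3 (SE 0.048). From 0 to 3 h it was -0.37, -0.32 and -0.36. These ratios include the change of the paralogs themselves.

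Relative to ERCC reads, the residual also left less RNA after 3 h than siControl did. Of IGF2BP1 at 0 h, 73.3% and 64.8% was left at 3 h and 54.1% and 55.9% at 6 h in siIGF2BP1, against 83.1% and 84.7%, then 65.8% and 61.8% in siControl. Of IGF2BP3, 71.2% and 72.9%, then 62.7% and 60.3% was left in siIGF2BP3, against 89.9% and 86.4%, then 76.5% and 74.5% in siControl. The groups, of 2 libraries each, did not overlap for either mRNA at either time. How many of all genes showed such a separation on this scale was not counted. IGF2BP2 stood at 68.6% and 70.6% at 3 h in siIGF2BP2, below 87.6% and 89.9% in siControl. At 6 h its values of 66.3% and 73.5% overlapped the 73.3% and 71.1% of siControl. The siControl libraries at 0 h, whose mean sets 100%, stood at 105% and 94.5% for IGF2BP1 and at 104% and 95.6% for IGF2BP2. Their spread was widest for IGF2BP3, at 108% and 92.3%.

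**Figure D3:**
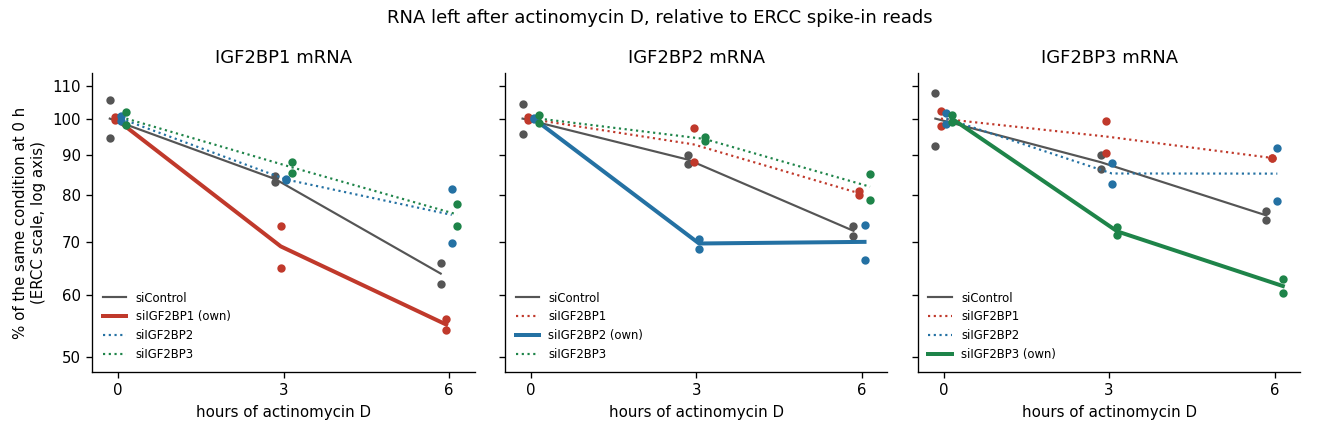
RNA left as a percentage of the mean of the same condition at 0 h, relative to ERCC reads (log axis), by hours of actinomycin D for each family mRNA. Points are libraries, lines join means of 2, and the thick line is the knockdown of the mRNA shown. At 3 h the targeted mRNA was at 64.8% to 73.3% in its own knockdown and at 83.1% to 89.9% in siControl.

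The half-lifetime of the residual, from ERCC-scaled means at the 3 time points, was shorter than that in siControl for each target. It was 10.4 h in siControl and 6.21 h in siIGF2BP1 for IGF2BP1, 14.7 h and 7.68 h in siIGF2BP2 for IGF2BP2, and 15.6 h and 7.29 h in siIGF2BP3 for IGF2BP3. These are ratios of 0.598, 0.521 and 0.468, where the median ratio of all genes with a half-lifetime was 1.18, 1.05 and 1.19. The median half-lifetime of all genes in siControl was 6.22 h, so that the 3 mRNAs were longer-lived than most genes in siControl, and the 2 shortest residuals were near the medians of 6.91 and 6.98 h in siIGF2BP1 and siIGF2BP3. Without siControl replicate 1 at 0 h, the siControl half-lifetime of IGF2BP3 became 28.4 h. Half-lifetimes from the fitted slope were 6.95 h for IGF2BP1, 11.6 h for IGF2BP2 and 8.54 h for IGF2BP3 in their own knockdowns, against 9.25, 12.8 and 14.8 h in siControl, so that the value for IGF2BP2 depended on how the 3 h and 6 h points were combined. On the TMM scale, where the siControl levels rose and give no half-lifetime, the residual gave 23.7 h for IGF2BP1 and 52.4 h for IGF2BP3.

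The slope test on the ERCC scale called none of these differences. Over 6 h the log2 change was -0.65, -0.47 and -0.40 in siControl for IGF2BP1, IGF2BP2 and IGF2BP3, all called (adjusted p of 8.10e-08, 6.15e-05 and 0.000120), as 80.3% of genes were in that direction. The slope in the own knockdown minus that in siControl was -0.21 for IGF2BP1 (SE 0.108, p 0.0592, adjusted p 0.459), -0.05 for IGF2BP2 (SE 0.127, p 0.713, adjusted p 0.875) and -0.30 for IGF2BP3 (SE 0.118, p 0.0199, adjusted p 0.287). Of all genes 0.0152%, 0 and 0.0228% were called by edgeR, or 2, 0 and 3 genes, with 1436, 896 and 2113 at an unadjusted p under 0.05 and 4, 6 and 27 called by DESeq2. The typical gene moved the other way, with medians of 0.19, 0.17 and 0.22, and 5.42%, 10.2% and 3.53% of genes had a lower difference than the target. With TMM scaling in the same slope model the differences were -0.41 (adjusted p 0.0702), -0.24 (adjusted p of 1.00 after rounding) and -0.53 (adjusted p 0.00132), and IGF2BP3 in siIGF2BP3 was the 1 gene of 13136 called lower (0.00761%, 0.0152% and 0.0228% were called in either direction).

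Loss of IGF2BP1 was accompanied by more mRNA of both paralogs. IGF2BP3 rose by 0.24 on the log2 scale in siIGF2BP1 over the 3 time points on the TMM scale (SE 0.0238, adjusted p 7.99e-11), to 118% of siControl (95% interval 115% to 122%). It passed the test at each time, with 0.22 at 0 h (adjusted p 0.000133), 0.25 at 3 h (adjusted p 1.65e-05) and 0.26 at 6 h (adjusted p 5.02e-06). IGF2BP2 rose by 0.09 (SE 0.0215, adjusted p 0.00103), to 106%, and passed at no single time, with adjusted p of 0.0501, 0.0760 and 0.197. In siIGF2BP1, 21.2% of genes were called higher over the 3 time points (9.43%, 10.6% and 13.5% at 0, 3 and 6 h), and 91.0% of genes had a smaller value than IGF2BP3 and 70.4% a smaller one than IGF2BP2. On the ERCC scale the differences over the 3 time points were 0.30 for IGF2BP3 and 0.15 for IGF2BP2, both called, while that of IGF2BP3 at 0 h did not pass (adjusted p 0.266). The median of all genes over the 3 time points on that scale was 0.06.

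Loss of IGF2BP3 was accompanied by more IGF2BP1. IGF2BP1 rose by 0.13 in siIGF2BP3 (SE 0.0173, adjusted p 2.55e-07), to 109% of siControl (107% to 112%), with 0.13, 0.11 and 0.15 at 0, 3 and 6 h (adjusted p 0.00418, 0.0111 and 0.000395). The calls at 0 and 3 h were lost without siControl replicate 1 or siIGF2BP3 replicate 1 of that time (adjusted p of 0.0869 and 0.0507 at 0 h, 0.134 and 0.0815 at 3 h). IGF2BP2 rose by 0.06 (SE 0.0216, adjusted p 0.0403), to 104%. In siIGF2BP3, 16.2% of genes were called higher over the 3 time points (4.93%, 7.40% and 9.44% at 0, 3 and 6 h), and 80.4% and 65.1% of genes had smaller values than IGF2BP1 and IGF2BP2. The call on IGF2BP2 was lost in 7 of 12 fits that left out 1 library. On the ERCC scale the differences over the 3 time points were 0.31 for IGF2BP1 and 0.24 for IGF2BP2, both called, while that of IGF2BP1 at 0 h did not pass (0.21, adjusted p 0.153). The median of all genes over the 3 time points on that scale was 0.18.

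Loss of IGF2BP2 left its paralogs nearest to siControl. IGF2BP1 rose by 0.05 in siIGF2BP2 (SE 0.0173, adjusted p 0.0371), to 103%, a call lost in 6 of 12 fits without 1 library. On the ERCC scale its difference was 0.18 and called, against a median of 0.15 over all genes on that scale. IGF2BP3 was at 97.3% of siControl (log2 difference -0.04, 95% interval -0.09 to 0.01, adjusted p 0.219), and at a difference of 0.10 on the ERCC scale (adjusted p 0.0854), where it passed at 6 h alone (0.23, adjusted p 0.0187). In siIGF2BP2, 17.1% of genes were called higher.

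**Figure D4:**
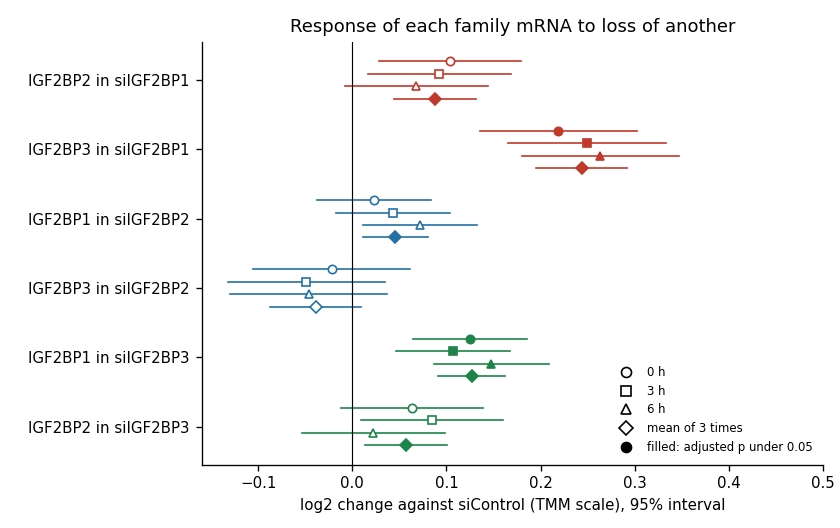
Log2 change of each family mRNA against siControl after knockdown of another member (horizontal axis, TMM scale, with 95% interval), at 0, 3 and 6 h and over the 3 time points. Filled symbols passed an adjusted p of 0.05. IGF2BP3 in siIGF2BP1 lay between 0.22 and 0.26 at the 3 times, and IGF2BP3 in siIGF2BP2 between -0.05 and -0.02.

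The 3 knockdowns share the siControl libraries, so the paralog responses were also compared between knockdowns directly. IGF2BP3 was higher in siIGF2BP1 than in siIGF2BP2 by 0.28 (SE 0.0238, adjusted p 1.46e-12; 43.0% of genes were called in this contrast), and IGF2BP1 was lower in siIGF2BP2 than in siIGF2BP3 by 0.08 (log2 difference -0.08, SE 0.0173, adjusted p 0.000349; 30.4% called). IGF2BP2 did not pass between siIGF2BP1 and siIGF2BP3, with a difference of 0.03 (95% interval -0.01 to 0.08, adjusted p 0.270; 37.9% of genes were called), and the sign turned on the ERCC scale (-0.09, adjusted p 0.138). Both libraries of the knockdown lay above both of siControl at all 3 times for IGF2BP2 and IGF2BP3 in siIGF2BP1, as for 14.8% of genes, and for IGF2BP1 in siIGF2BP3, as for 8.94% of genes.

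None of the 6 paralog slope differences passed the test. On the ERCC scale, the slope differences from siControl were 0.16 for IGF2BP2 and 0.24 for IGF2BP3 in siIGF2BP1, 0.25 for IGF2BP1 and 0.17 for IGF2BP3 in siIGF2BP2, and 0.25 for IGF2BP1 and 0.18 for IGF2BP2 in siIGF2BP3. Their adjusted p ranged from 0.291 to 0.643, and unadjusted p under 0.05 occurred for IGF2BP1 in siIGF2BP2 (0.0316) and in siIGF2BP3 (0.0309). These values lay near the medians of all genes, 0.19, 0.17 and 0.22. Half-lifetimes of the paralogs ranged from 13.1 h, for IGF2BP1 in siIGF2BP2, to 38.1 h, for IGF2BP3 in siIGF2BP1, and values beyond the 6 h sampled are imprecise. The last became 64.6 h without siIGF2BP1 replicate 2 at 3 h and 55.0 h without replicate 2 at 0 h.

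The summed level of the 3 mRNAs per exon length fell in 2 of the 3 knockdowns. The sum includes the targeted mRNA, so a lower value was largely fixed by the knockdown and is no test of the paralogs. It was 109 ± 1.58 TMM-scaled CPM per kb in siControl at 0 h, 62.3 ± 1.76 in siIGF2BP1, 86.2 ± 1.25 in siIGF2BP2 and 109 ± 0.949 in siIGF2BP3 (SD, n = 2). Over the 3 time points it was 56.4% of siControl in siIGF2BP1 and 78.0% in siIGF2BP2, each with an exact permutation p of 0.00926 (two-sided, over all relabelings within time points, the smallest they can give; 0.0139 adjusted over 3 knockdowns). In siIGF2BP3 it was 98.5% (exact permutation p 0.148). This last value turned to 112% on the ERCC scale (adjusted exact p 0.0185) and was 93.0% with canonical transcript lengths (adjusted exact p 0.00926), since the length set for IGF2BP3 is 8535 bases over all its exons and 4274 in the canonical transcript.

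On the TMM scale at 0 h, the paralog gain was small beside the loss in siIGF2BP1 and siIGF2BP2. IGF2BP1 lost 51.3 ± 0.647 TMM-scaled CPM per kb (SE) in siIGF2BP1 and its paralogs together gained 4.39 ± 1.15, or 8.56% of the loss. In siIGF2BP2 the loss was 23.9 ± 0.659 and the gain 0.869 ± 0.935, or 3.64%. In siIGF2BP3 the loss was 7.58 ± 0.161 and the gain 7.34 ± 1.41, or 96.8%, of which 5.90 came from IGF2BP1. At 6 h these shares were 8.31%, 10.0% and 72.1%. The shares depended on the scale in all 3 knockdowns. On the ERCC scale they were 6.45%, 22.6% and 183% at 0 h and 20.9%, 75.4% and 346% at 6 h. The gains at 0 h on that scale were 4.23 ± 3.02, 6.71 ± 5.71 and 17.2 ± 6.74 (SE). The median log2 change of all genes there was -0.02, 0.10 and 0.09 at 0 h and 0.17, 0.27 and 0.31 at 6 h. The shares were not corrected for these medians, and they also depended on the length. With canonical transcript lengths, added after the data were seen, they were 12.3%, 2.66% and 54.5% at 0 h on the TMM scale. IGF2BP1 made up 22.1% of the sum in siIGF2BP1 at 0 h, behind IGF2BP2 at 55.9% and beside IGF2BP3 at 22.0%, whereas it led in the other conditions with 59.6% to 76.7%. With canonical lengths the shares in siIGF2BP1 were 17.6%, 50.5% and 31.9%, so that the order of IGF2BP1 and IGF2BP3 there depended on the length. With these lengths IGF2BP1 still led in the other conditions at 0 h, with 52.8% to 68.3%.

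**Figure D5:**
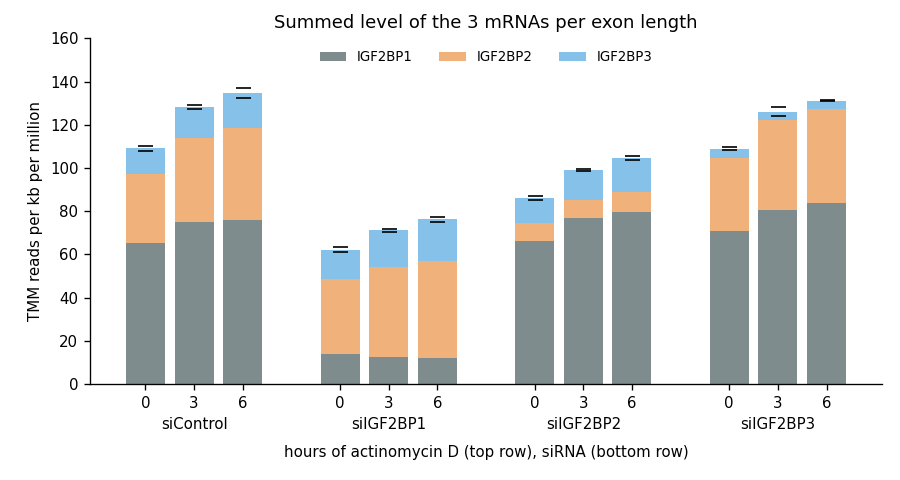
Summed level of the 3 family mRNAs in TMM-scaled CPM per kb (vertical axis) by siRNA and hours of actinomycin D, with the mean share of each mRNA stacked and the sum of each library as a dash. At 0 h the sum was 62.3 in siIGF2BP1, 86.2 in siIGF2BP2 and 109 in both siControl and siIGF2BP3.

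Across the 24 libraries, log2 levels of the members correlated negatively, with r of -0.34 for IGF2BP1 and IGF2BP2, -0.47 for IGF2BP1 and IGF2BP3, and -0.22 for IGF2BP2 and IGF2BP3. These correlations rest on the 6 knockdown libraries of each member and are a description. Among the genes of 9745 candidates whose levels followed each member most closely were COG5, HAGLR and PIAS3 for IGF2BP1 (r of 0.98, 0.98 and 0.98), PDSS2 and NPAS2 for IGF2BP2 (0.98 and 0.97), and AKAP12 and LPIN1 for IGF2BP3 (0.93 and 0.91). Since the knockdown libraries drive the correlation, a lower level in the knockdown of that member was fixed by the choice, and these log2 changes over the 3 time points ranged from -0.27 for LPIN1 to -1.36 for PIAS3.

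Among mRNAs of 16 proteins found with IGF2BPs in ribonucleoprotein particles, 5 passed at 0 h with siIGF2BP1 (3 rose and 2 fell), while 5 rose with siIGF2BP2 and 7 with siIGF2BP3. The background was 15.9%, 12.1% and 9.39% of genes called in either direction, and 6.65% called higher in siIGF2BP2. The list was chosen with earlier results of these data known, so its counts are a description and no independent comparison with that background. The 3 knockdowns also share the siControl libraries, so a gene that rose in each was not seen 3 times independently. The medians of the 16 were 0.07, 0.08 and 0.09, where those of all genes were 0.01, 0.02 and 0.00. FMR1, a translational regulator of neuronal mRNAs, rose by 0.70 in siIGF2BP1 (SE 0.0466, adjusted p 2.24e-14), by 0.37 in siIGF2BP2 (SE 0.0467, adjusted p 1.69e-07) and by 0.49 in siIGF2BP3 (SE 0.0469, adjusted p 8.70e-10). MOV10, an RNA helicase, rose by 0.15 in siIGF2BP1 and 0.13 in siIGF2BP2, and STAU1, which binds double-stranded RNA, rose by 0.10, 0.12 and 0.11 in siIGF2BP1, siIGF2BP2 and siIGF2BP3. EXOSC2, an exosome subunit, and DHX9, an RNA helicase, rose by 0.19 and 0.13 in siIGF2BP3. On the ERCC scale 2, 1 and 1 of the 16 passed, with 2, 7 and 9 at an unadjusted p under 0.05, where 4.94%, 5.57% and 3.59% of all genes were called at 0 h.

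Of 17 genes of the let-7 axis and of oncofetal growth, 15 were tested. At 0 h, 3 rose and 3 fell with siIGF2BP1, 3 rose and 2 fell with siIGF2BP2, and 2 rose and 2 fell with siIGF2BP3. Of all genes, 15.9%, 12.1% and 9.39% were called in either direction at 0 h. This list too was chosen with earlier results known, and the knockdowns share the siControl libraries, so the counts are a description. The medians of the 15 were 0.01, 0.06 and 0.00 (-0.0048 before rounding), where those of all genes were 0.01, 0.02 and 0.0035. IGF2, the fetal growth factor after whose mRNA the family is named, rose by 0.46 in siIGF2BP1 (SE 0.0395, adjusted p 1.72e-11), by 0.12 in siIGF2BP2 (SE 0.0395, adjusted p 0.0339) and by 0.15 in siIGF2BP3 (SE 0.0395, adjusted p 0.00871). Its reads may be split with the overlapping gene INS-IGF2. HMGA2, a fetal chromatin protein and let-7 target, fell by 0.33 in siIGF2BP1 (SE 0.0388, adjusted p 3.76e-08) and by 0.16 in siIGF2BP2 (adjusted p 0.00267), while HMGA1, its relative, fell by 0.22 in siIGF2BP1 and rose by 0.14 in siIGF2BP2 (adjusted p 0.00224). NRAS, a small GTPase, fell by 0.21 in siIGF2BP1 (adjusted p 0.000632) and rose by 0.16 in siIGF2BP2 (adjusted p 0.0153). CDK6, a cell cycle kinase, fell by 0.15 in siIGF2BP2 and by 0.13 in siIGF2BP3 (adjusted p 0.0386). DICER1, which makes mature miRNAs, fell by 0.14 in siIGF2BP3, and TRIM71, a stem cell ubiquitin ligase, rose by 0.18 in siIGF2BP1 and 0.13 in siIGF2BP3. On the ERCC scale edgeR called 3, 0 and 0 of the 15, with 4, 6 and 3 at an unadjusted p under 0.05. On that scale 4.94%, 5.57% and 3.59% of all genes were called.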

How the data were processed

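Single-end reads of polyadenylated RNA from 24 HepG2 libraries were analysed from the count tables. Per the labels and the study's methods, the authors trimmed reads with Trimmomatic 0.39, aligned them with HISAT2 2.1.0 to hg38 and counted them per gene with HTSeq on GENCODE 29, and the deposited values are raw read counts. Multi-mapping settings were not given in the sources used here, so reads in stretches shared by paralogs are uncertain. Of 58721 gene rows, 45 second copies of pseudoautosomal genes on Y were not used. The 5 HTSeq summary rows, 13.6% to 17.1% of each total, stayed out of library sizes. Lengths, positions and sequences were from GENCODE 44 on hg38, with symbols for 58207 genes.

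The 13136 genes that reached 1 CPM in 2 or more libraries entered edgeR 4.0.16 quasi-likelihood tests in R 4.3.3, two-sided, with Benjamini-Hochberg adjustment over all of them and a threshold of 0.05. Levels used 12 group means with TMM scaling (12 residual degrees of freedom). Decay used an intercept and slope per condition, scaled by the ERCC sum (16 residual degrees of freedom). Half-lifetime was ln2/K, where K averages the decay rates from 0 to 3 h and from 0 to 6 h, each the natural log of the ratio of ERCC-scaled means divided by the hours. Spike-in was added per total RNA and does not measure RNA per cell. The family sum was tested by exact permutation within time points. Alternatives were DESeq2 1.42.0, other scalings and filters, fewer groups, a replicate block and fits without each library. Chi-square tests between the replicates of a group gave 3.24 to 8.52 per degree of freedom, above the 1 of sampling noise alone. Sequence comparisons used Python 3.11.15 with Biopython 1.88.

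The members and both gene lists were chosen with earlier results of these data known. Genes were named where they were members, shared the IGF2BP symbol, were the 3 most like each member by Pearson's r of log2 CPM (prior count 1, mean CPM of at least 5), were among the 3 largest changes of a list in a knockdown (then given in each knockdown where they passed), or fell further than the target; some genes that this rule names are not reported here.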

Additional observations from a re-analysis of the deposited data

Results flagged for a closer look

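In 5 cases the test of the difference between 2 effects passed the threshold. The effect of each siRNA on its own target at 6 h of actinomycin D minus that at 0 h, on the TMM scale, was -0.41 for IGF2BP1 (adjusted p 3.82e-07 in edgeR), -0.24 for IGF2BP2 (adjusted p 0.0321) and -0.53 for IGF2BP3 (adjusted p 8.55e-06). The response of IGF2BP1 to siIGF2BP2 minus its response to siIGF2BP3 was -0.081 (adjusted p 0.000349). The response of IGF2BP3 to siIGF2BP1 minus its response to siIGF2BP2 was 0.28 (adjusted p 1.46e-12). With 2 libraries a group, no group was large enough to look for a single outlying library.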

How the results depend on the processing

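Over the 3 time points together, the 3 own knockdowns, the rises of both paralogs in siIGF2BP1 and of IGF2BP1 in siIGF2BP3, and the sums in siIGF2BP1 and siIGF2BP2 kept their direction and their side of the threshold under every alternative run and without any 1 library, where the sums have a direction but no test. ERCC scaling moved the median of all genes over the 3 time points from near 0 to 0.06, 0.15 and 0.18 in siIGF2BP1, siIGF2BP2 and siIGF2BP3, and the cause was not tested. Under it IGF2BP3 in siIGF2BP2 turned to 0.099, IGF2BP2 in siIGF2BP1 minus siIGF2BP3 to -0.088, and the sum in siIGF2BP3 to 0.16, and the counts called at 0 h were 2, 1 and 1 for the ribonucleoprotein list and 3, 0 and 0 for the let-7 list. At 0, 3 and 6 h, IGF2BP3 in siIGF2BP2 was then 0.057, 0.0092 and 0.23. With canonical lengths the sum in siIGF2BP3 was -0.10 (log2). With no filter, where more genes are tested, IGF2BP1 in siIGF2BP2 was 0.041 (adjusted p 0.154), IGF2BP2 in siIGF2BP3 0.053 (0.156), and 1 of the ribonucleoprotein list passed in siIGF2BP2. With only 2 conditions fitted, IGF2BP2 in siIGF2BP3 was 0.056 (adjusted p 0.0944).

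For decay, TMM scaling gave own differences of -0.41, -0.24 and -0.53, the last called, and with the 0 to 6 h change alone -0.41, -0.24 and -0.53, all called. Library-size scaling gave -0.39 (IGF2BP1) and -0.50 (IGF2BP3), both called. The 3 to 6 h change alone turned IGF2BP1 to 0.068 and IGF2BP2 to 0.31. These relative scales turned siControl slopes to 0.22, 0.40 and 0.47 (TMM, and again 0.22, 0.40 and 0.47 for the 0 to 6 h change) and to 0.078 and 0.15 (library size, IGF2BP2 and IGF2BP3). The 0 to 3 h change alone left -0.17 and -0.18, not called. Paralog slope differences turned to -0.037 (IGF2BP2 in siIGF2BP1), -0.025 (IGF2BP3 in siIGF2BP2) and -0.040 (IGF2BP2 in siIGF2BP3) with TMM scaling, to -0.036, -0.024 and -0.040 for the 0 to 6 h change alone on that scale, to -0.019 and -0.012 for IGF2BP2 in siIGF2BP1 and siIGF2BP3 by library size, and to -0.0020 and -0.048 for IGF2BP1 and IGF2BP3 in siIGF2BP2 for 0 to 3 h alone.

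Without 1 library at a time, IGF2BP1 in siIGF2BP2 ranged from 0.039 to 0.053, IGF2BP2 in siIGF2BP3 from 0.041 to 0.071, and the own decay difference of IGF2BP2 from -0.19 to 0.026, turning without siControl replicate 2 or either siIGF2BP2 replicate at 0 h. IGF2BP2 in siIGF2BP3 at 6 h ranged from -0.016 to 0.062.

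Whether replicate numbers pair the libraries was checked from the deviations of same-numbered libraries. These correlated with r of -0.064 to 0.276 over 66 pairs of groups, and 6 exceeded 0.1. Within a condition, where a transfection may be shared, r was -0.032 to 0.238 over 12 pairs, and 3 exceeded 0.1. At the same time point 1 of 18 pairs did. Pairing within a condition thus stayed unsettled. With the replicate number as a block, IGF2BP3 in siIGF2BP1 was 0.24, IGF2BP2 in siIGF2BP1 at 0 h passed (0.10, adjusted p 0.0427), and no other call on a member changed. In the fit of levels this block was a single effect common to all conditions. It does not model a transfection shared within a condition, so it cannot settle that question.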
